A study of Mus musculus with 7 samples.

Results

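The 10 genes described here form the core of the pathway that Rb1 controls. They are the pocket protein genes Rb1, Rbl1 and Rbl2, the activator genes E2f1, E2f2 and E2f3, the repressor genes E2f7 and E2f8, and the upstream regulators Cdkn2a and Ccne1. They were listed by gene symbol and not by a cutoff on a measured value, but earlier results of these data were known when they were chosen. They are 10 of the 56941 genes in the deposited tables. All 10 passed the low-count filter in every comparison below. Transcripts were counted in single nuclei from endpoint lung tumors of 4 male mice in a model of small cell lung cancer, 2 RP animals (RP1 and RP2) and 2 RPC animals (RPC1 and RPC2). Both groups carried floxed alleles of Rb1 and Trp53 (fl/fl) and had inhaled the adenovirus Ad5-CMV-Cre as young adults, and the tumors were fresh-frozen. The RPC animals are labelled Casp8-/- in addition, although the submitters' design text describes that deletion as conditional too. The CMV promoter drives Cre in whichever lung cell the virus enters, and the tables hold tumor nuclei beside normal lung and immune nuclei. The 7 sequencing libraries each pool nuclei of all 4 animals, and the animal was therefore the replicate.

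Pocket proteins bind E2F transcription factors and hold their target genes silent until cyclin-dependent kinases phosphorylate them. Cyclin E, the product of Ccne1, completes that phosphorylation with CDK2 at entry into S phase, and p16INK4a, 1 of the products of Cdkn2a, inhibits the cyclin D kinases that begin it. The other product of Cdkn2a, p19ARF, stabilizes p53. E2F1 to E2F3 activate genes of DNA replication, E2F7 and E2F8 repress the same genes later in S phase, and the E2F genes are themselves E2F targets. Loss of RB1 and of p53 is the defining pair of lesions in small cell lung cancer, and mouse models built on both losses give neuroendocrine lung tumors.

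The 4 tables held between 8413 nuclei (RP1) and 10865 nuclei (RPC1), with 38254 of 38353 kept, and 0 barcodes were shared between animals. The summed depth ran from 32299909 transcripts in RP1 to 72446861 in RPC1, and the median nucleus had 2223 to 3392 transcripts. Classes were rebuilt from markers and are called "-like" for that reason. Of the kept nuclei, 32063 are called tumor-like because their clusters had no normal-class marker score above 0.5, and not because neuroendocrine markers led them. The neuroendocrine score of these clusters, the median log2 fold of the markers against all other nuclei (mostly tumor-like themselves), ran from −0.41 to 0.42. A cluster of 646 tumor-like nuclei led by neuronal genes held 585 nuclei of RPC1. Normal classes also held neuroendocrine marker transcripts, the median marker standing at 35.9 to 90.3% of its level in tumor-like nuclei. All counts are whole-gene counts that include any exons left outside a deleted part, so they do not check the genotypes. Casp8 was not lower in the animals labelled RPC, with 91.7 CPM (transcripts scaled to a fixed total, as counts per 1e+06) in RPC1 and 66.9 in RPC2 among tumor-like nuclei, against 57.0 in RP1 and 60.5 in RP2. RP and RPC below mean the animals so labelled.

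The promoters of these genes are where pocket proteins and E2F factors act, and the stretches that carry an E2F word are shown because the same 10 genes are compared below across the cell cycle. Words of the E2F site (TTTCCCGC, TTTCGCGC, TTTGCCGC and TTTGGCGC) were searched on both strands from 250 bases before to 50 bases after the canonical start of each gene, on GRCm39. A word was found in 7 of the 10 genes (70%), in 11 of 25 replication and chromatin genes listed as E2F targets (44%), and in 614 of 21757 protein-coding genes (2.82%). Capitals mark the word, read 5′ to 3′ on the strand of the gene, so that a word on the opposite strand appears as its reverse complement.
Rb1, chr14:73563703-73563732, minus strand: tcaaaagctacTTTCCCGCtaagatctgtc
Rbl1, chr2:157046454-157046483, minus strand: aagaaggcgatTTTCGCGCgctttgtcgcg
E2f1, chr2:154411777-154411806, minus strand: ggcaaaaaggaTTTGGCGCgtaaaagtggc
E2f1, chr2:154411790-154411819, minus strand: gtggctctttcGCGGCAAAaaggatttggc
E2f2, chr4:135899605-135899634, plus strand: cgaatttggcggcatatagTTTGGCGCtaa
E2f3, chr13:30170039-30170068, minus strand: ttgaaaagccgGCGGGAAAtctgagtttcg
E2f7, chr10:110581091-110581120, plus strand: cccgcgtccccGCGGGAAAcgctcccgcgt
E2f8, chr7:48530941-48530970, minus strand: tcccgctttccGCGCCAAAtttttaaatcg
The word lay before the start in Rb1 (214 bases), E2f3 (11 bases), E2f7 (204 bases) and E2f8 (151 bases), and at or after it in Rbl1 (base 4), E2f1 (bases 5 and 18) and E2f2 (base 40). The 2 stretches of E2f1 overlap. These 4 words were not found in the windows of Rbl2, Cdkn2a and Ccne1, and other annotated starts of the same genes, such as that of the alternative first exon of Cdkn2a, were not searched. The word TTTGAA, the core of the cell cycle homology region bound by the MuvB complex, was found in 3 of the 10 genes (Rb1, Rbl2 and E2f3), in 3 of the 25 listed targets (12%) and in 17.1% of protein-coding genes. In Rb1 and E2f3 this stretch lies next to the E2F word. A match is a description of letters and says nothing of binding in these nuclei.

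The genes differ widely in length, and nuclear counts draw on introns, so levels are compared between genes only per kilobase of gene span. Rb1 is the longest (142 kb, chr14:73421113-73563507) and E2f1 the shortest (10.5 kb, chr2:154401326-154411812). The mean tumor-like level per kilobase of span was highest for the repressor E2f8 (5.64 CPM per kb), followed by E2f2 (5.38) and the other repressor E2f7 (4.96). Cdkn2a (3.55), E2f1 (3.20), Ccne1 (3.19) and Rbl1 (3.01) lay together in the middle. Rb1 (2.59), E2f3 (1.37) and Rbl2 (0.808) were lowest. Some spans overlap other genes, and whether the counting used strand is not given in the sources used here. Rb1 contains Lpar6 (0.619 to 1.48 CPM in tumor-like nuclei) and overlaps Rcbtb2 (37.7 to 71.5 CPM), and Rbl2 overlaps Aktip (22.4 to 26.4 CPM), so reads of these pairs may be split between them. Ccne1 overlaps 1600014C10Rik at 3.56 to 4.88 CPM and E2f8 overlaps Gm2788 at 4.24 to 9.77 CPM.

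To ask how these genes vary over the cell cycle of the tumor cells, the 30026 tumor-like nuclei with at least 1000 transcripts were sorted by the summed share of 32 S phase genes and of 48 mitotic genes, none of which is among the 10. Nuclei low on both lists (under 20 per 10000 transcripts) are called non-cycling (5136 nuclei), those high on the S list alone (40 or more) S-like (2817), those high on the mitotic list alone (60 or more) mitotic-like (1954), and those high on both lists "both" (2672). The other 17447 were left unassigned. Limits were set after the distribution of the shares was seen, and 14631 nuclei (48.7%) lay within 5 per 10000 of a limit, so the classes are ranges and not types. Stricter limits (under 10, 50 or more and 100 or more) were tried as an alternative, and so was leaving out the 2653 nuclei above 4 times the median depth of their animal. Many S list genes are known E2F targets, and the classes were therefore cut on genes of the same program as the ones described. Non-cycling nuclei made up 18.2 and 23.0% of the nuclei in RP1 and RP2 and 14.5% in each RPC animal. S-like nuclei made up 10.9, 10.3, 10.6 and 6.21% in RP1, RP2, RPC1 and RPC2. The median depth was 2005.5 to 2668.5 transcripts in non-cycling, 2181 to 2830 in S-like, 2641 to 4785 in both and 2993 to 4480 in mitotic-like nuclei.

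Of the 10 genes, 9 rose in S-like against non-cycling nuclei and Rbl2 did not pass the test. The background is that 19.2% of the 12928 genes tested were higher, 18.6% lower and 37.8% called in either direction, by edgeR's quasi-likelihood test with the animal as block and Benjamini-Hochberg adjustment over all genes. The median log2 fold change was 1.70 over the 10 genes and −0.03 over all genes. In each of the 9 the 4 S-like values lay above the 4 non-cycling values. In mitotic-like against non-cycling nuclei 4 of the 10 rose (Rbl1, E2f2, E2f7 and E2f8) and 1 fell (E2f1), where 16% of genes were higher, 16.9% lower and 32.9% called. In S-like against mitotic-like nuclei 9 of the 10 were higher, where 17.8% of genes were higher, 17% lower and 34.8% called. The p-values below are adjusted p-values from this edgeR fit.

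**Figure D1:**
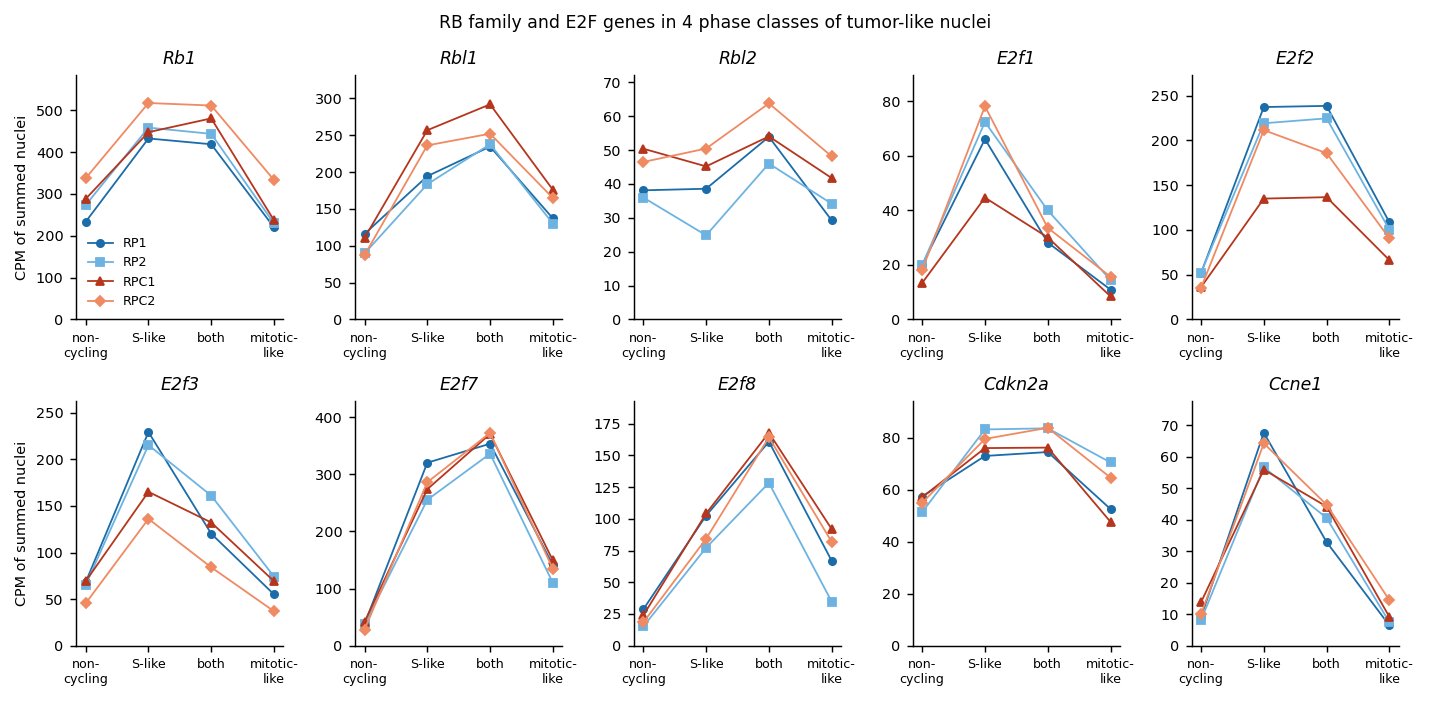
Summed counts scaled to a fixed total (CPM, vertical axis, from 0, a separate scale per gene) of the 10 genes in the summed nuclei of 4 phase classes (horizontal axis), with 1 line per animal. E2f1, E2f3 and Ccne1 peak in S-like nuclei in all 4 animals. Rbl1, Rbl2, E2f7, E2f8 and Cdkn2a peak in nuclei high on both lists in all 4 animals, and of these only E2f7 and E2f8 do not overlap their S-like values. Rbl2 is higher in S-like than in non-cycling nuclei in 2 of the 4 animals.

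Rb1 encodes the founding pocket protein, and its alleles are the floxed ones of this model. Its whole-gene level was 233, 274, 288 and 338 CPM in non-cycling nuclei, given here and below in the order RP1, RP2, RPC1, RPC2. It was 433, 459, 448 and 518 CPM in S-like nuclei and 219.9, 229, 237 and 333 CPM in mitotic-like nuclei. The lowest S-like animal exceeded the highest animal of both other classes, while non-cycling and mitotic-like values overlapped. Rb1 transcripts were thus 1.62-fold higher in S-like than in non-cycling nuclei (log2 fold change 0.70 ± 0.07 SE, n = 4 animals, adjusted p = 1.11e-07). Against mitotic-like nuclei they were 1.81-fold higher (0.86 ± 0.07, adjusted p = 4.36e-09). The mitotic-like against non-cycling difference was −0.16 ± 0.07 (adjusted p = 0.0923), and it passed the threshold without RPC2 (−0.20, adjusted p = 0.0485) and with the stricter limits (−0.37, adjusted p = 0.0449). The deleted part of the gene is not given in the sources used here, and these counts do not say whether a transcript was intact.

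Rbl1 encodes p107, the pocket protein that accumulates in cycling cells. Its level was 116, 89.5, 110.5 and 87.1 CPM in non-cycling nuclei. It was 194, 183, 257 and 236 CPM in S-like and 137, 130.2, 176 and 165 CPM in mitotic-like nuclei. The 3 classes did not overlap. Rbl1 was 2.13-fold higher in S-like than in non-cycling nuclei (1.09 ± 0.09, adjusted p = 2.73e-09), 1.51-fold higher in mitotic-like than in non-cycling nuclei (0.59 ± 0.09, adjusted p = 1.47e-05, and 0.37 with classes taken from clusters), and higher in S-like than in mitotic-like nuclei by 0.50 ± 0.09 (adjusted p = 0.000104).

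Rbl2 encodes p130, the pocket protein associated with quiescence. Its level was 38.1, 36.0, 50.4 and 46.5 CPM in non-cycling, 38.6, 24.8, 45.2 and 50.4 CPM in S-like and 29.2, 34.1, 41.7 and 48.1 CPM in mitotic-like nuclei. These ranges overlapped throughout. The log2 fold change was −0.13 ± 0.11 (adjusted p = 0.375) for S-like and −0.17 ± 0.11 (adjusted p = 0.272) for mitotic-like against non-cycling nuclei. A difference of Rbl2 between non-cycling and S-like or mitotic-like nuclei was not detected, which does not show that there was none.

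Among the activators, E2f1 had the largest S-like excess over mitotic-like nuclei. E2f1 stood at 19.9, 19.96, 13.4 and 18.1 CPM in non-cycling nuclei, 66.0, 72.3, 44.6 and 78.1 CPM in S-like nuclei and 10.9, 14.4, 8.42 and 15.6 CPM in mitotic-like nuclei. Every S-like value was above every value of the other classes. E2f1 was 3.57-fold higher in S-like than in non-cycling nuclei (adjusted p = 3.71e-10) and 5.15-fold higher than in mitotic-like nuclei (2.36 ± 0.15, adjusted p = 3.12e-11). Mitotic-like nuclei were below non-cycling nuclei in each animal, by 0.53 ± 0.16 on the log2 scale (0.693-fold, adjusted p = 0.0162). That fall did not pass without RP1 (adjusted p = 0.0717), without RP2 (adjusted p = 0.0605), without the animal as block (adjusted p = 0.203), without deep nuclei (adjusted p = 0.0636) or with the stricter limits (log2 fold change −0.06, adjusted p = 0.9505).

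E2f2 had 51.6, 52.2, 36.0 and 35.2 CPM in non-cycling nuclei and 237, 219, 135 and 211 CPM in S-like nuclei. In mitotic-like nuclei it had 108, 100.3, 66.2 and 90.7 CPM, between the other classes and without overlap with either. E2f2 rose 4.46-fold in S-like (2.16 ± 0.08, adjusted p = 2.73e-14) and 2.08-fold in mitotic-like nuclei (1.05 ± 0.09, adjusted p = 3.29e-09), where the log2 difference was 0.31 with classes taken from clusters. E2f3 had 68.1, 65.4, 69.1 and 45.5 CPM in non-cycling nuclei and 229, 215, 165 and 136 CPM in S-like nuclei, a 2.94-fold rise (1.56 ± 0.10, adjusted p = 1.34e-10). Its mitotic-like values of 55.0, 74.1, 69.2 and 36.9 CPM overlapped the non-cycling ones (−0.09 ± 0.11, adjusted p = 0.605), and with classes taken from clusters E2f3 fell there (−0.33, adjusted p = 0.0105). In the main setting E2f2 was thus called above the non-cycling level in mitotic-like nuclei, E2f3 was not called and E2f1 was called below it. The E2f1 fall did not hold in the alternatives given above, and the activators were not tested against each other.

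The atypical repressors E2f7 and E2f8 rose in S-like nuclei and stayed above the non-cycling level in mitotic-like nuclei. E2f7 rose from 38.1, 37.1, 41.3 and 28.1 CPM in non-cycling nuclei to 320.2, 255, 274 and 286 CPM in S-like nuclei. It was at 141, 109.9, 149 and 134 CPM in mitotic-like nuclei. The 3 classes did not overlap. The S-like rise was 7.68-fold (2.94 ± 0.09, adjusted p = 9.47e-16), the largest of the 10 genes, and the mitotic-like rise was 3.68-fold (1.88 ± 0.09, adjusted p = 5.18e-13). E2f8 rose from 28.7, 15.1, 23.9 and 18.4 CPM to 103, 77.2, 104 and 84.3 CPM in S-like nuclei, and had 66.9, 34.7, 91.9 and 81.8 CPM in mitotic-like nuclei. Its mitotic-like values overlapped the S-like ones and exceeded the non-cycling ones. The E2f8 rise was 4.30-fold in S-like (2.10 ± 0.14, adjusted p = 2.43e-10) and 3.24-fold in mitotic-like nuclei (1.70 ± 0.14, adjusted p = 5.15e-09). With classes taken from clusters the mitotic-like log2 differences were smaller, at 0.47 for E2f7 and 0.79 for E2f8, and both were still called. The S-like excess of E2f8 over mitotic-like nuclei (0.41 ± 0.13, adjusted p = 0.0187) did not pass without RP1 (adjusted p = 0.0779), without RP2 (adjusted p = 0.132), without the animal as block (adjusted p = 0.358), without deep nuclei (adjusted p = 0.0746) or with the stricter limits (adjusted p = 0.405).

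Of the upstream regulators, Ccne1 had the larger S-like rise. Cyclin E1 transcripts stood at 9.10, 8.12, 13.8 and 9.96 CPM in non-cycling nuclei, 67.6, 56.7, 55.9 and 64.3 CPM in S-like nuclei and 6.44, 7.47, 9.15 and 14.4 CPM in mitotic-like nuclei. The S-like values were far above both other classes, which overlapped. The rise was 5.81-fold against non-cycling (2.54 ± 0.16, adjusted p = 6.27e-11) and 6.33-fold against mitotic-like nuclei (2.66 ± 0.18, adjusted p = 8.31e-11). Between mitotic-like and non-cycling nuclei the difference was −0.12 ± 0.21 (adjusted p = 0.704), and with classes taken from clusters Ccne1 fell (−0.37, adjusted p = 0.00989). Cdkn2a had 57.3, 51.3, 57.1 and 54.9 CPM in non-cycling, 72.9, 83.1, 75.9 and 79.5 CPM in S-like and 52.5, 70.4, 47.6 and 64.6 CPM in mitotic-like nuclei. S-like nuclei were above both of these classes in all 4 animals, by 1.40-fold over non-cycling nuclei (0.48 ± 0.09, adjusted p = 0.000347), the smallest rise of the 9. The counts of Cdkn2a do not separate the transcripts of p16INK4a and p19ARF.

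Nuclei high on both lists, which were among the deepest and in which doublets were not called, are set beside S-like nuclei without a test. E2f7 was at 353, 336, 371 and 372 CPM in these nuclei and E2f8 at 161, 128, 168 and 164 CPM. Both genes exceeded every S-like value, by 1.104 to 1.35-fold for E2f7 and 1.57 to 1.95-fold for E2f8 within animals. E2f1 (28.1, 39.95, 30.03 and 33.5 CPM), E2f3 (120.2, 161, 132 and 84.1 CPM) and Ccne1 (32.9, 40.6, 44.2 and 44.8 CPM) were below their S-like level in each animal, at 0.426 to 0.673, 0.524 to 0.801 and 0.487 to 0.791 of it. Rbl1, Rbl2 and Cdkn2a were higher than in S-like nuclei in 4 of 4 animals with overlapping ranges. Rb1 and E2f2 went in different directions in different animals.

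The depth of the nuclei differed between classes, so the share of nuclei with at least 1 transcript was also counted after thinning every nucleus to 1000 transcripts. The intervals are exact binomial ones and cover counting error only. E2f7 was found in 3.75, 3.77, 3.66 and 2.68% of non-cycling nuclei, 22.4, 21.1, 21.5 and 23.2% of S-like nuclei and 10.4, 10.7, 14.9 and 13.5% of mitotic-like nuclei. Ccne1 was found in 1.05, 0.808, 1.07 and 0.755% of non-cycling nuclei, in 6.15, 4.98, 3.85 and 6.45% of S-like nuclei, and in 0.982, 0, 0.864 and 1.88% of mitotic-like nuclei. The 0 of RP2 is 0 of 449 nuclei, with an exact 95% upper limit of 0.818%. The S-like share was the larger of the pair in all 4 animals for 9 of the 10 genes, at 1000 transcripts and unthinned alike. In mitotic-like against non-cycling nuclei the share was larger in all 4 animals for 4 of the 10 genes when thinned and for 9 unthinned, and mitotic-like nuclei were the deeper of the pair.

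**Figure D2:**
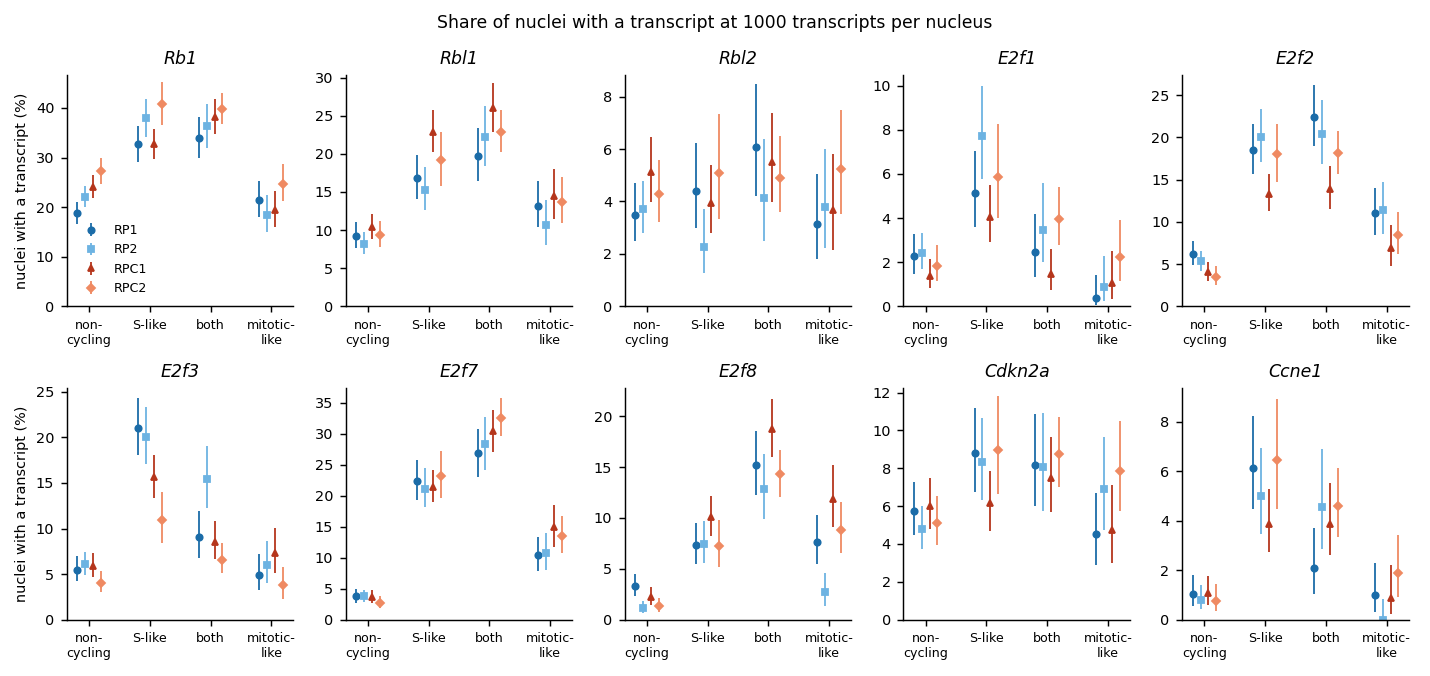
Share of nuclei with at least 1 transcript (percent, vertical axis, from 0) of each gene in 4 phase classes (horizontal axis), with every nucleus thinned to 1000 transcripts. Points are animals and bars are exact 95% binomial intervals that cover counting error only. S-like nuclei lie above non-cycling nuclei in all 4 animals for every gene except Rbl2.

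As a background, the same shares were read in endothelial-like nuclei (median unthinned depth 2572 to 4451 transcripts) and in macrophage- or monocyte-like nuclei (3337 to 5037). At 1000 transcripts E2f7 was found in 6.98, 7.44, 22.5 and 15.3% of endothelial-like and 9.09, 6.36, 10.2 and 7.59% of macrophage- or monocyte-like nuclei. Within animals, the S-like share exceeded both in RP1, RP2 and RPC2, whereas in RPC1 the endothelial-like share was as high. The mitotic-like share exceeded both in RP1 and RP2 and lay below the endothelial-like share in RPC1 and RPC2, where it is not read as expression. The non-cycling share lay below both in all 4 animals. Ccne1 was found in 0, 0.826, 3.37 and 1.33% of endothelial-like nuclei and 0, 0.707, 2.15 and 0.633% of macrophage- or monocyte-like nuclei, below the S-like share of the same animal throughout. The 0 values are 0 of 86 and 0 of 143 nuclei, with exact 95% upper limits of 4.20 and 2.55%. The phase lists themselves were higher in these classes than in non-cycling nuclei, with 21.6 to 28.1 S list transcripts per 10000 in endothelial-like nuclei against 10.8 to 11.9 in non-cycling nuclei, which were selected for low values. The part of RNA carried between nuclei in the phase differences was not tested.

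Other genes of the pathway are given as 4 lists, by their counts. All 25 listed E2F targets of replication and chromatin rose in S-like against non-cycling nuclei, where 19.2% of all genes tested were higher. Their median log2 fold change was 1.58. They ran from Mcm4, a helicase subunit, at 0.78 ± 0.11 to Cdc6, which loads that helicase, at 3.13 ± 0.16. The classes were cut on genes of the same program, so this rise is not independent of the cut. In mitotic-like nuclei 10 of the 25 rose and 4 fell. The DNA repair gene Brca1 (2.07 ± 0.09) and the thymidine kinase gene Tk1 (1.95 ± 0.12) rose most, and Mcm4 (−0.94 ± 0.13) and Mcm6 (−0.93 ± 0.12) fell most. Against mitotic-like nuclei 22 of the 25 were higher in S-like nuclei, with Cdc6 (3.05 ± 0.18) and the sliding clamp gene Pcna (2.00 ± 0.15) at the top.

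Of 11 genes for pocket protein partners and DREAM or MuvB subunits, 8 rose in S-like nuclei and none (0) fell. With the stricter limits the rises of Lin54 (log2 fold change 0.28, adjusted p = 0.573) and Lin9 (0.15, adjusted p = 0.654) did not pass. That of Lin9 did not pass without the animal as block either (adjusted p = 0.427). The largest rise was that of Mybl2, the MYB factor that joins MuvB, at 1.85 ± 0.22. In mitotic-like nuclei 5 of the 11 rose, led by Lin54, the DNA-binding subunit of MuvB, at 2.11 ± 0.12 and E2f5, a repressor E2F that pairs with pocket proteins, at 1.23 ± 0.19. The Mybl2 rise there (0.70 ± 0.25) did not pass without RP1 (adjusted p = 0.257), without RP2 (adjusted p = 0.296) or without RPC2 (adjusted p = 0.0697).

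Of 8 genes for cyclins and their kinases, 6 could be tested between phases. In S-like nuclei 4 rose and 1 fell. The rises were led by Ccne2, the other cyclin E gene, at 1.97 ± 0.11 and the kinase gene Cdk2 at 1.57 ± 0.17. The fall was that of the D cyclin gene Ccnd3 at −1.73 ± 0.12. The rise of Cdk4 (0.57 ± 0.10) did not pass with the stricter limits (adjusted p = 0.0884) or without the animal as block (adjusted p = 0.0608). In mitotic-like nuclei the cyclin A gene Ccna2 rose by 3.61 ± 0.22 and Ccnd3 fell (−0.98 ± 0.11). Of 6 genes for CDK inhibitors, 3 rose in S-like nuclei (Cdkn1c, Cdkn1a and Cdkn2c, by 0.59 to 0.80) and Cdkn1b, the gene of p27, fell (−0.33 ± 0.09). The rise of Cdkn1a did not pass without RPC2 (adjusted p = 0.0745), and that of Cdkn1c did not pass without RP1 (adjusted p = 0.180), without RPC1 (adjusted p = 0.104) or without RPC2 (adjusted p = 0.277). With the stricter limits neither Cdkn1b (adjusted p = 0.0503) nor Cdkn2c (adjusted p = 0.114) passed, and without the animal as block 0 of these 4 inhibitor calls passed. In mitotic-like nuclei 4 of the 6 inhibitors rose, led by Cdkn2d (1.65 ± 0.27) and Cdkn2c (1.38 ± 0.13), which both encode inhibitors of the cyclin D kinases. The rise of Cdkn1c there (0.95 ± 0.30) likewise did not pass without RP1 (adjusted p = 0.0904), without RPC1 (adjusted p = 0.0657) or without RPC2 (adjusted p = 0.133).

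**Figure D3:**
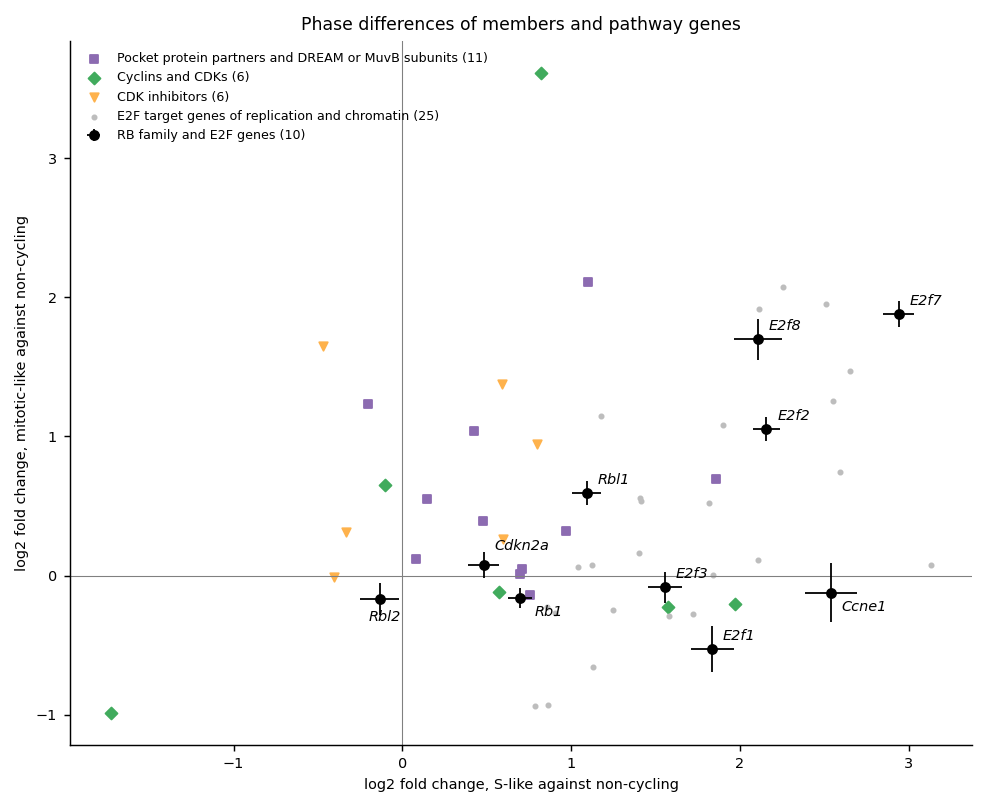
Log2 fold change against non-cycling nuclei in S-like (horizontal axis) and in mitotic-like nuclei (vertical axis) for the 10 genes (black, with standard errors from edgeR) and for the genes of 4 pathway lists. Both axes share the non-cycling sums. Of the black points 9 are called right of 0, and only Rbl1, E2f2, E2f7 and E2f8 are called above 0 on the vertical axis.

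Genes with a course like that of 5 of the members are given as a description. The measure is Pearson's correlation of log2 CPM over the 16 sums of 4 animals in 4 classes, which share animals, among 9495 genes with a mean of at least 10 CPM. The course of E2f1 was most like those of Rfc2, Coro2a and Hells (r = 0.96 each), and that of Ccne1 was most like those of Ccne2, Pola1 and Wdhd1 (r = 0.98 each). Rfc2, Hells, Pola1 and Wdhd1 belong to the S list that cut the classes. E2f8 was most like the DNA repair gene Fignl1 and the condensin subunit gene Ncapd3 (r = 0.98 each) and Gm48796 (r = 0.97). Rb1 was most like Sfmbt1 (r = 0.98), Rps6ka5 and Anapc5 (r = 0.96 each). Cdkn2a had the loosest neighbors, Kif2a (r = 0.94), Tmem243 (r = 0.92) and Ssrp1 (r = 0.91).

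The study asked what loss of caspase 8 does to RP tumors, and the 10 genes were compared between RPC and RP in all tumor-like nuclei. None (0) of the 10 was called by edgeR's quasi-likelihood test, where 0% of 20107 genes were called. The unadjusted p was under 0.05 for 3036 genes, none of them (0) among the 10, and DESeq2 called 745 genes, again 0 of the 10. The lowest adjusted p among the 10 was 0.332. On the scale of trimmed-mean (TMM) normalized CPM, 6 of the 10 had both RPC animals above both RP animals (Rb1, Rbl1, Rbl2, E2f7, E2f8 and Ccne1) and 1 had both below (E2f3), where 24.7% of all genes were higher and 25.6% lower in this way.

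The pocket protein genes were all among the 6. Rb1 had 310.3 and 334 CPM in RP1 and RP2 and 396 and 436 CPM in RPC1 and RPC2 (log2 fold change 0.31 ± 0.15, unadjusted p = 0.0861 in the edgeR fit). Rbl1 had 159.6 and 142 CPM against 215 and 189 CPM (0.36 ± 0.15, unadjusted p = 0.0599). Rbl2 had 37.3 and 35.0 CPM against 46.5 and 55.1 CPM (0.43 ± 0.17, unadjusted p = 0.0517). None of these differences passed the adjustment.

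The activators had values below 0 and did not pass either. E2f1 had 31.3 and 38.8 CPM in RP and 30.1 and 33.8 CPM in RPC (−0.19 ± 0.18, and −0.32 to −0.039 with 1 animal left out), overlapping. E2f2 had 152 and 127 CPM against 103 and 130.2 CPM (−0.32 ± 0.19, and −0.50 to −0.14 with 1 animal left out), overlapping as well. E2f3 had 118 and 123 CPM against 119 and 76.5 CPM (−0.36 ± 0.23), with RPC2 alone far below the rest. Without RPC2 the E2f3 difference was −0.06, and without RPC1 it was −0.69.

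The repressors had values above 0 and did not pass. E2f7 had 203 and 162 CPM in RP and 240.1 and 228 CPM in RPC (0.30 ± 0.17, and 0.14 without RP2 to 0.49 without RP1). E2f8 had 82.0 and 57.0 CPM against 108 and 97.9 CPM (0.50 ± 0.22, unadjusted p = 0.0685), the largest difference of the 10, and the E2f8 value ran from 0.26 to 0.81 as 1 animal at a time was left out. Ccne1 had 30.9 and 30.4 CPM against 39.8 and 37.3 CPM (0.27 ± 0.15), and Cdkn2a had 67.8 and 76.4 CPM against 68.3 and 74.5 CPM (−0.07 ± 0.15). In all tumor-like nuclei the S list stood at 30.7 and 28.7 per 10000 transcripts in RP and 35.2 and 32.8 in RPC, and the mitotic list at 59.8 and 48.0 against 64.3 and 73.9. Both lists were thus higher in both RPC animals. Of the tumor-like nuclei with at least 1000 transcripts, mitotic-like nuclei made up 8.09 and 6.96% in RP and 5.13 and 6.46% in RPC. Nuclei high on both lists made up 8.36 and 7.13% in RP and 8.27 and 11.4% in RPC. The part of the cell cycle in the RPC against RP differences was not tested, and the values within phase classes follow below.

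**Figure D4:**
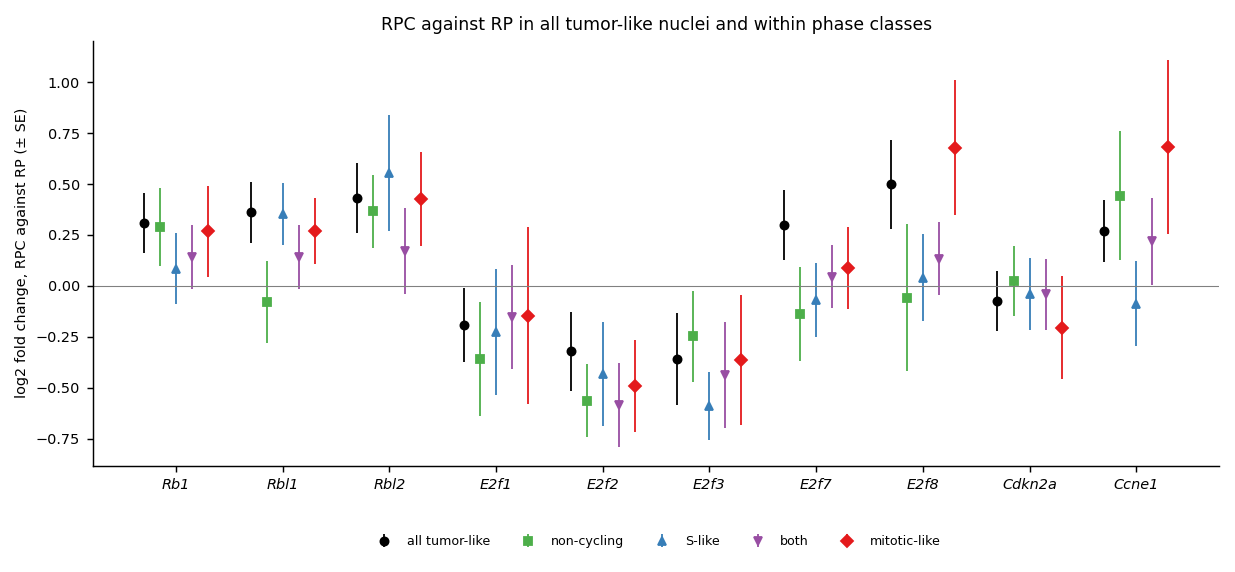
Log2 fold change of RPC against RP (vertical axis, with standard errors from edgeR) for the 10 genes (horizontal axis) in all tumor-like nuclei and within each phase class. No value was called. E2f7 moves from 0.30 in all nuclei to between −0.14 and 0.09 within classes, and E2f2 and E2f3 stay below 0 in all classes.

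Within phase classes some of these differences changed. Rbl1 was at −0.08 in non-cycling, 0.35 in S-like, 0.14 in both and 0.27 in mitotic-like nuclei, and Ccne1 at 0.44, −0.09, 0.22 and 0.68. For Rb1 the difference was 0.29 in non-cycling, 0.08 in S-like, 0.14 in both and 0.27 in mitotic-like nuclei, and for E2f7 it was −0.14, −0.07, 0.05 and 0.09. E2f8 was at −0.06, 0.04, 0.13 and 0.68. E2f2 was at −0.56, −0.43, −0.58 and −0.49, farther from 0 in each class than in all nuclei, and E2f3 was at −0.25, −0.59, −0.44 and −0.36. Rbl2 stayed above 0 at 0.37, 0.55, 0.17 and 0.43. None of the 10 was called in any class, and the smallest adjusted p was 0.290, for E2f3 in S-like nuclei.

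Whether the phase course itself differed between RPC and RP was tested as an interaction. None (0) of the 10 was called for the S-like or for the mitotic-like difference, where 0% of 12928 genes were called in either. The unadjusted p was under 0.05 for 668 and 757 genes, and DESeq2 called 0 and 2 genes. The members under that unadjusted threshold were Rbl1, with an interaction of 0.44 ± 0.14 in S-like nuclei (unadjusted p = 0.00702, adjusted p = 0.903) and 0.37 ± 0.15 in mitotic-like nuclei (unadjusted p = 0.0231, adjusted p = 0.793), and E2f8, with 0.76 ± 0.24 in mitotic-like nuclei (unadjusted p = 0.0051, adjusted p = 0.579). Positive values are larger rises in RPC. With 1 animal left out the Rbl1 values ran from 0.25 (without RP1) to 0.59 in S-like and from 0.22 (without RP1) to 0.48 in mitotic-like nuclei, and without RPC2 the mitotic-like value was 0.23. None (0) of the genes of the 4 pathway lists was called between RPC and RP. The list medians were 0.20 for E2F targets, −0.21 for pocket protein partners, −0.05 for cyclins and kinases and 0.42 for inhibitors, against 0.29 for the 10 genes and −0.01 for all genes.

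Normal classes offer a comparison outside the tumor. Endothelial-like nuclei numbered 94, 156, 92 and 171 and macrophage- or monocyte-like nuclei 159, 316, 188 and 171 in RP1, RP2, RPC1 and RPC2. The median neuroendocrine marker reached 67.7 to 81.9% of the tumor-like value in the first and 55.2 to 69.0% in the second. Levels there are therefore given as a percent of the tumor-like level of the same animal and set against those figures, and how much of each level was carried over was not tested. Tumor-like sums hold cycling and non-cycling nuclei together, and the latter were selected for low phase lists. E2f7 had 28.1 to 41.3 CPM in non-cycling, 124 to 213 in endothelial-like and 110 to 200 in macrophage- or monocyte-like nuclei. E2f2 had 35.2 to 52.2, 73.2 to 131 and 79.1 to 131 CPM in the same order. Non-cycling Rbl1 (87.1 to 116 CPM) overlapped the endothelial-like range. The part of cycling nuclei in the differences below was not tested.

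Tumor-like nuclei were higher than endothelial-like nuclei in 5 of the 10 genes, where 8.29% of 17026 genes were higher, 9.27% lower and 17.6% called by the edgeR test with the animal as block. These were Rbl1 (log2 fold change 0.60 ± 0.11, adjusted p = 0.000275), E2f2 (0.48 ± 0.11, adjusted p = 0.00207), E2f7 (0.44 ± 0.10, adjusted p = 0.00213), E2f8 (0.37 ± 0.13, adjusted p = 0.0492) and Ccne1 (0.59 ± 0.18, adjusted p = 0.0254). The call of E2f8 did not hold without RP1 (adjusted p = 0.189), RP2 (adjusted p = 0.0694) or RPC1 (adjusted p = 0.164), nor that of Ccne1 without RP1 (adjusted p = 0.0517), RP2 (adjusted p = 0.200) or RPC2 (adjusted p = 0.0561). E2f1 (0.44, adjusted p = 0.0991) passed without RP2 (0.63, adjusted p = 0.0429). None (0) of the 10 was called without the animal as block. Endothelial-like nuclei held Rb1 at 96.6, 86.0, 88.2 and 92.1% of the tumor-like value (0.19, adjusted p = 0.159), above the marker range. Without the low-count filter 7 of the 10 were called, with Rb1 (0.30, adjusted p = 0.0437) and E2f1 (0.55, adjusted p = 0.0297) in addition. Ccne1 was at 59.9, 39.8, 93.2 and 73.3% and Rbl1 at 56.6, 76.9, 59.1 and 77.6%, within or below it in most animals.

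Against macrophage- or monocyte-like nuclei 6 of the 10 were higher, where 16.1% of 17085 genes were higher, 16.5% lower and 32.5% called. E2f8 (0.54 ± 0.10, adjusted p = 0.000343), E2f7 (0.53 ± 0.10, adjusted p = 0.000457), E2f2 (0.36 ± 0.09, adjusted p = 0.00417) and Ccne1 (0.54 ± 0.13, adjusted p = 0.00459) led them. Rb1 (0.23 ± 0.08, adjusted p = 0.0350) did not pass without RP1 (adjusted p = 0.0669) or RPC1 (adjusted p = 0.109), and Rbl1 (0.24 ± 0.08, adjusted p = 0.0251) did not pass without RP1 (adjusted p = 0.0600), RP2 (adjusted p = 0.0544) or RPC1 (adjusted p = 0.0588). Without the animal as block 1 of the 10, Ccne1, was called. These nuclei held Rbl2 at 129.7, 99.4, 125 and 103% of the tumor-like value (−0.15, adjusted p = 0.324). Cdkn2a was at 77.1, 93.2, 101 and 89.7% (0.16, adjusted p = 0.250), and E2f3 at 101, 99.5, 80.8 and 114% (0.06, adjusted p = 0.733).

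**Figure D5:**
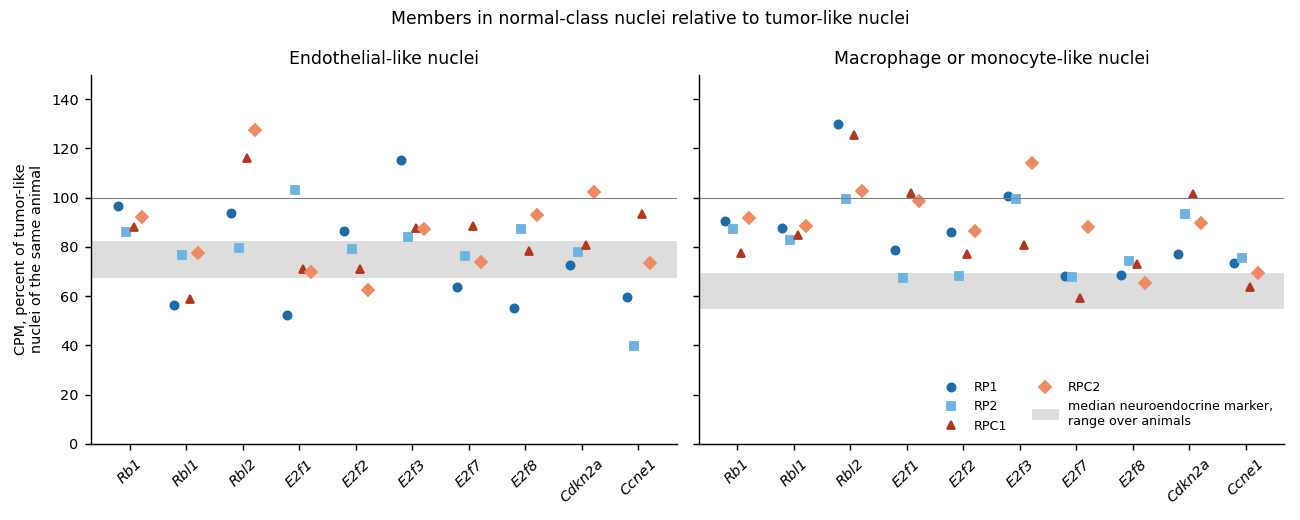
CPM of the 10 genes (horizontal axis) in endothelial-like and in macrophage- or monocyte-like nuclei as a percent of the tumor-like level of the same animal (vertical axis, from 0), with 1 point per animal. The grey band is the range over animals of the median neuroendocrine marker, 67.7 to 81.9% and 55.2 to 69.0%, and the Rb1 points lie above it in both classes.

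The cyclins and kinases of the lists showed which normal-class transcripts did stand apart. Cdk6, a cyclin D kinase gene, was lower in tumor-like than in endothelial-like nuclei (−4.30 ± 0.17) and than in macrophage- or monocyte-like nuclei (−4.26 ± 0.15). Its cyclin gene Ccnd2 was lower in both comparisons as well (−3.06 ± 0.40 and −3.71 ± 0.27), and Ccnd1 was lower than in endothelial-like nuclei (−2.15 ± 0.44). Of the 25 E2F targets 13 were higher than in endothelial-like and 12 than in macrophage- or monocyte-like nuclei, and none (0) was lower. Over all genes 8.29 and 16.1% were higher. Of the targets followed in the alternatives, Ezh2, Dnmt1, Skp2 and Gmnn lost the call against endothelial-like nuclei without the animal as block (adjusted p = 0.147 to 0.216). Mcm6, Tyms, Dnmt1 and Cdc25a lost it in the same way against macrophage- or monocyte-like nuclei (adjusted p = 0.0756 to 0.268). Some of these calls also did not hold with 1 animal left out. Of the pocket protein partners 5 and 4 of the 11 were higher, Rbbp4, Lin9, Tfdp1 and Tfdp2 among them in both comparisons. Against endothelial-like nuclei Lin9 did not pass without RP1 (adjusted p = 0.126), and Rbbp4 did not pass without RP1 (adjusted p = 0.128) or RP2 (adjusted p = 0.0854). Without the animal as block all 4 lost the call against endothelial-like nuclei (adjusted p = 0.150 to 0.620), and Rbbp4, Lin9 and Tfdp1 lost it against macrophage- or monocyte-like nuclei (adjusted p = 0.307 to 0.448), where Tfdp2 kept it. Of the inhibitors only Cdkn2c was called higher (0.41 ± 0.14 and 0.59 ± 0.12), and its call against endothelial-like nuclei did not hold in any of the 4 fits that left out 1 animal (lowest adjusted p = 0.0890). Neither call of Cdkn2c held without the block (adjusted p = 0.641 and 0.252).

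The other normal classes are described without a test, and not all of them were small. Nuclei per animal numbered 24 to 123 in alveolar type 1-like, 22 to 98 in alveolar type 2-like and 12 to 30 in ciliated-like nuclei. Fibroblast-like nuclei numbered 93 to 145 and club-like nuclei 38 to 743. Over the 10 genes and 4 animals the median level was 60.4% of the tumor-like level in alveolar type 1-like, 67.0% in alveolar type 2-like, 57.7% in ciliated-like, 73.0% in fibroblast-like and 85.3% in club-like nuclei. In T or NK-like (36 to 71 nuclei) and B-like nuclei (46 to 145 nuclei) it was 93.4 and 93.0%, and there the neuroendocrine markers were also high, at 73.5 to 90.3% and 67.6 to 80.0% of their tumor-like level. Rbl2 stood out in these lymphoid classes. It was at 50.4, 96.6, 130.2 and 76.9 CPM in T or NK-like nuclei, again in the order RP1, RP2, RPC1, RPC2 (18, 14, 23 and 14 transcripts) and at 52.2, 101.5, 71.7 and 79.3 CPM in B-like nuclei (35, 11, 24 and 41 transcripts). All 8 values were above the tumor-like value of the same animal, standing at 135 to 280.0% of it in T or NK-like and at 140.1 to 290.3% in B-like nuclei. Rbl2 was also above the tumor-like value in 4 of 4 animals in alveolar type 2-like nuclei (38.6, 35.2, 75.8 and 88.7 CPM), barely so in RP1 and RP2. In fibroblast-like, club-like and macrophage- or monocyte-like nuclei it was above in 3 of 4 animals, reaching 137, 125 and 129.7%. In endothelial-like nuclei it was above in 2 of 4, and in alveolar type 1-like and ciliated-like nuclei in 0 of 4.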

How the data were processed

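Nuclei were isolated from endpoint tumors and barcoded with a Parse Evercode kit. The authors' pipeline (Parse 1.1.1, GRCm39, Ensembl 110) gave the deposited counts, whole numbers of transcripts per gene and nucleus, in 1 table per animal (32299909 to 72446861 transcripts). The 8 other deposited columns of per-nucleus values were not used. Nuclei with at least 300 counts, at most 10% mitochondrial counts and at most 12000 genes were kept, the study's own limits. Doublets were not called. Nuclei were clustered (Leiden, resolution 0.4, 2000 variable genes, leidenalg 0.10.2) without the 10 genes and the pathway lists, and clusters were named from markers. A mixed epithelial cluster was split into club-like and alveolar type 2-like nuclei by the clusters at resolution 0.8. Counts were summed per animal and class, normalized by TMM, filtered with filterByExpr and tested two-sided with edgeR 4.0.16 (quasi-likelihood, R 4.3.3) and Benjamini-Hochberg adjustment over all genes tested, with a threshold of 0.05. Standard errors were taken as |log2 fold change| over √F. DESeq2 1.42.0 was an alternative. The scripts were tested on simulated data. All 10 genes were named, and of each pathway list the 2 called genes with the largest and the 2 with the smallest log2 fold change per comparison; the text prints some of these. The members and lists were chosen with earlier results of these data known. Gene positions and promoter stretches came from the GRCm39 genome with GENCODE vM39. Sublibraries carry no animal of their own and were summed.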

Additional observations from a re-analysis of the deposited data

Results flagged for a closer look

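In 70 groups of 4 animals (10 genes in 7 classes), 3 values lay apart from the other 3 by more than Dixon's 95% critical value for 4 samples, where chance gives about 1 in 20 groups. All 3 were values of RPC2. Rb1 in mitotic-like nuclei was 333 CPM in RPC2, with the nearest animal at 237 and the farthest at 220 CPM (gap over range 0.851). E2f3 in all tumor-like nuclei was 76.5 CPM in RPC2, with the nearest at 118 and the farthest at 123 CPM (0.893). E2f3 in non-cycling nuclei was 45.5 CPM in RPC2, with the nearest at 65.4 and the farthest at 69.1 CPM (0.842). The number of such groups is near what chance gives.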

How the results depend on the processing

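Of the called and uncalled values of the 10 genes over all alternatives, 599 kept direction and side of the threshold, 34 no longer passed, 8 newly passed and 20 reversed, all of the last uncalled. Counts of called genes moved over 1.5 times as follows, and the cause was not tested. The stricter limits left fewer nuclei, and 8206 genes were tested there against 12928. RPC against RP (0): 29 without the low-count filter, 745 by DESeq2, 5 in mitotic-like nuclei alone and 0 to 7 with 1 animal left out (7 without RPC2). S-like against non-cycling (4888): 2162 with the stricter limits and 1249 without the animal as block, of which 895 were higher and 354 lower against 2481 and 2407. Mitotic-like against non-cycling (4251): 2316 and 1114 (805 higher, 309 lower, against 2071 and 2180). S-like against mitotic-like (4497): 2168 and 1672. Interaction, S-like (0): 38 without the filter and 0 to 10 with 1 animal left out (4 without RPC1, 10 without RPC2). Interaction, mitotic-like (0): 63 without the filter, 2 by DESeq2 and 0 to 23 with 1 animal left out (1 without RP2, 23 without RPC1, 8 without RPC2). Against endothelial-like nuclei (2989): 992 without the block (35 higher, 957 lower, against 1411 and 1578), and 2147 higher and 1481 lower without the filter. Of the 10 genes (5 called) 3 were called by DESeq2, 0 without the block and 3 to 4 with 1 animal left out (3 without RP1). Against macrophage- or monocyte-like nuclei (5559): 2351 without the block (505 higher, 1846 lower, against 2745 and 2814), and of the 10 genes (6 called) 1 without the block. Without the filter the median of all genes was 0.51 and 0.43 in these comparisons, against 0.10 and 0.07. The mitotic-like share exceeded the non-cycling share in all animals for 9 genes unthinned, against 4.

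Values that reversed were, for RPC against RP, Rbl1 in non-cycling nuclei (−0.079), E2f7 in non-cycling (−0.14) and S-like nuclei (−0.072), E2f8 in non-cycling nuclei (−0.058), Ccne1 in S-like nuclei (−0.087) and Cdkn2a in non-cycling nuclei (0.024) and with 1 animal left out (−0.14 to 0.010; 0.0066 without RP2 and 0.010 without RPC1). For mitotic-like against non-cycling nuclei they were Rbl2 (0.071 with the stricter limits, 0.11 with classes from clusters), E2f3 (0.025, stricter), Cdkn2a (−0.026 stricter, −0.066 from clusters, −0.044 to 0.19 with 1 animal left out, lowest without RP2) and Ccne1 (−0.42 to 0.084, highest without RPC1). For S-like against mitotic-like nuclei Rbl2 reversed (−0.49 stricter, −0.037 without RP1 to 0.15 with 1 animal left out). Against endothelial-like nuclei Rbl2 reversed (0.047 without the filter, −0.17 to 0.10 with 1 animal left out, highest without RPC2), and against macrophage- or monocyte-like nuclei E2f3 (−0.060 without RPC1 to 0.14).

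With classes taken from clusters, the mitotic-like against non-cycling differences were smaller for Rbl1 (0.37), E2f2 (0.31), E2f7 (0.47) and E2f8 (0.79), and E2f3 (−0.33) and Ccne1 (−0.37) fell. No cluster gave an S-like class. A replicate block over the numbers shared by RP and RPC called 0 genes for RPC against RP. The differences of the 2 pairs (RP1 minus RP2, RPC1 minus RPC2) correlated at −0.0507 over 20107 genes. With 1 difference per group this cannot show whether same-numbered animals share anything beyond the number. Leaving out 1 animal leaves a group with 1, assumed to vary like the other. Alternatives restricted to S-like, mitotic-like or both classes, without the neuronal cluster or without deep nuclei were chosen after seeing the data. Low counts limit the small normal classes, where Rbl2 rests on 4 to 41 transcripts per animal in B-like, T or NK-like and alveolar type 2-like nuclei.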
